A study of Mus musculus with 6 samples.

Results

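The cell cycle and DNA replication genes described here are 43 genes whose products license and copy DNA, drive the step from G1 into S phase, or build and run the mitotic spindle. They were chosen by gene symbol, and all 43 were found among the 21686 genes of the deposited table. By their known roles they fall into 6 G1 regulators, 8 origin licensing genes, 6 genes of the replication fork and of nucleotide supply, and 23 mitotic genes.

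RNA was sequenced from MC3T3-E1 Subclone 14, a cloned line of mouse osteoblast precursors, in 6 libraries, 2 for each of 3 groups. Control cells received 100 µL of PBS, dexamethasone cells 10 µM of this synthetic glucocorticoid, and dexamethasone + EPC-EVs cells 10 µM dexamethasone together with 100 µg of EPC-EVs, each for 72 hours, as the sample labels give them. The design text of the series names fibroblasts and a shorter time, and the sample labels were followed. EPC-EVs are extracellular vesicles shed by endothelial progenitor cells of mouse bone marrow. The comparison of dexamethasone with control addressed the response to the steroid, and that of dexamethasone + EPC-EVs with dexamethasone the response to the vesicles.

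In G1, D-type cyclins with Cdk4 or Cdk6, and then E-type cyclins with Cdk2, phosphorylate the Rb protein and free E2F factors, which drive the genes of DNA replication, while Cdkn1b (p27) holds these kinases back. Cdc6 and Cdt1 load the Mcm helicase onto origins, and the fork then needs Pcna, Fen1, the GINS complex and nucleotides made by ribonucleotide reductase and thymidylate synthase. Genes of G2 and mitosis are held down in resting cells by the DREAM complex through CHR elements in their promoters and are switched on late by B-Myb and FoxM1. Glucocorticoids are known to slow the division of osteoblast precursors.

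The deposited totals were between 5146760 and 13182014 counts per library, with the 2 dexamethasone + EPC-EVs libraries the deepest. These 2 libraries also stood apart in makeup. Mitochondrially encoded genes took 0.465% and 0.727% of their counts, against 5.55% to 8.62% in the other 4 libraries, and abundant noncoding RNAs took 6.44% and 7.23%, against 0.817% to 1.23%. The members together held between 0.315% and 0.546% of the counts of a library. Of the osteoblast markers, Runx2, the main osteoblast transcription factor, stood at 152 to 202 CPM in the 6 libraries (CPM are counts scaled to a common library size, with totals corrected by edgeR's TMM method) and Col1a1 at 2205 to 8770 CPM, while Alpl, alkaline phosphatase, stayed between 0 and 3.19 CPM. With EPC-EVs against dexamethasone 3 of the 11 osteoblast markers tested were called higher and 2 lower, and 1 of 5 fibroblast markers higher and 3 lower. Col1a1 stood at 2428 and 2905 CPM in dexamethasone and 8770 and 6914 CPM with EPC-EVs, and Col1a2 and Sparc also rose. Dmp1, a matrix protein of osteocytes, stood at 333 and 349 CPM in dexamethasone and 138 and 26.1 CPM with EPC-EVs, and Spp1 and Phex also fell. Of the fibroblast markers, Dcn, decorin, stood at 499 and 494 CPM against 93.2 and 45.5 CPM, and Col3a1 at 820 and 802 CPM against 1595 and 1204 CPM. Of the 10 endothelial and progenitor markers in the table, 6 were at or near 0 in each group, Cdh5 and Emcn among them, while Cd34 stood at 359 to 411 CPM in the control and dexamethasone libraries and at 289 and 239 CPM with EPC-EVs. The summed leukocyte markers stood at 44.4 and 88.8 CPM in the dexamethasone + EPC-EVs libraries against 21.1 to 27.8 CPM elsewhere, over the 8 of 12 leukocyte markers that the table holds. Csf1r (4.44 and 37.0 CPM with EPC-EVs against 0 to 2.91 CPM) and Cd14 (24.2 and 33.4 CPM against 3.06 to 10.3 CPM) made up most of this difference, and Adgre1 and Cd3e were at or near 0. The part of these differences in makeup in the results below was not tested.

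On a scale that allows for gene length (FPKM on the TMM-scaled totals), the highest control levels among the members were those of Mki67, the proliferation antigen Ki-67, with a mean of 117 FPKM, followed by the D-type cyclins Ccnd2 at 80.2 and Ccnd1 at 78.4 FPKM. Tpx2 stood at 76.8 and Cdkn1b at 70.2 FPKM. The 2 control libraries of Ccnd1 (95.2 and 61.5 FPKM), Ccnd2 (89.2 and 71.1), Tpx2 (67.5 and 86.2) and Cdkn1b (61.0 and 79.4) overlap, so these 4 neighbours cannot be ordered. Fen1 was the lowest, with no count in either control library.

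**Figure D1:**
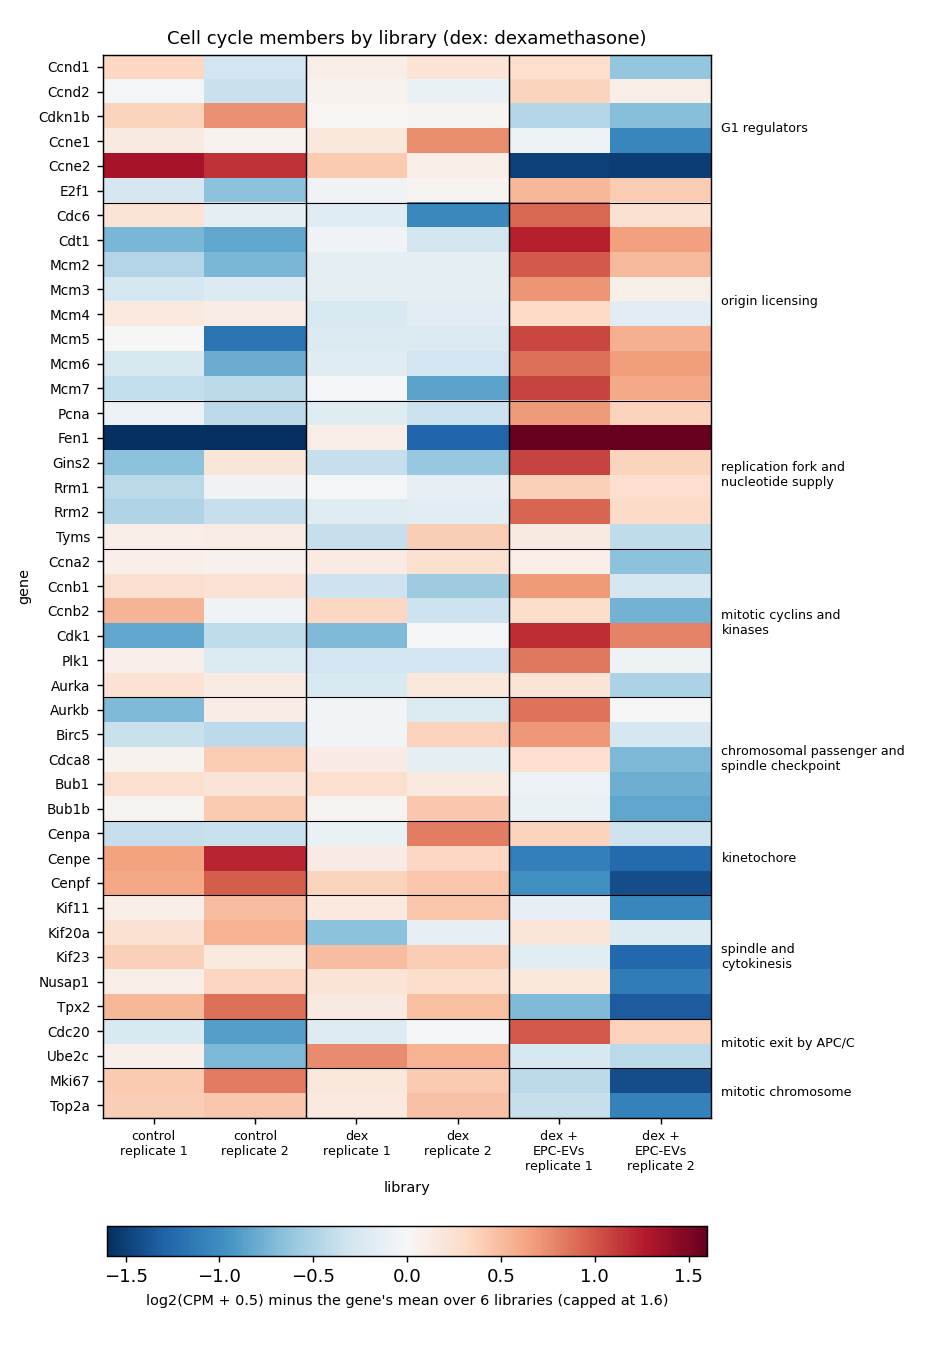
Level of each of the 43 members (rows, grouped by role) in the 6 libraries (columns), as log2(CPM + 0.5) minus the mean of that gene over the 6 libraries, red above and blue below the mean. Most licensing and fork genes are red in both dexamethasone + EPC-EVs columns, Cenpe, Cenpf and Tpx2 are blue there, and replicate 1 of this group lies above replicate 2 in all 43 rows.

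With EPC-EVs added to dexamethasone, 9 of the 14 DNA replication members were higher and 9 of the 23 mitotic members lower. All 43 members passed the filter on low counts, 11 were called higher and 12 lower in dexamethasone + EPC-EVs than in dexamethasone, and 20 were not called (edgeR's quasi-likelihood test, Benjamini-Hochberg adjusted p under 0.05 over all genes tested). Of all 13556 genes tested, 20.9% were called higher and 18.9% lower, and the members as a whole, without regard to role, were not far above these shares. The median log2 fold change was 0.07 over the members and 0.01 over all genes. The counts differed between roles. Among the 14 genes of licensing, fork and nucleotide supply, none was called lower and the values lay around a median of 0.94 on the log2 scale. Among the 23 mitotic genes 2 were higher and 9 lower, around a median of -0.47. Of the 6 G1 regulators 3 were called lower and none higher. The summed level of the 14 licensing and fork genes was 515 and 487 CPM in dexamethasone against 946 and 723 CPM with EPC-EVs, and that of the 23 mitotic genes was 2594 and 3032 CPM against 1975 and 1176 CPM. The groups overlapped in neither sum. In RNA from whole cultures, fewer cells in a phase and less RNA per cell cannot be told apart.

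**Figure D2:**
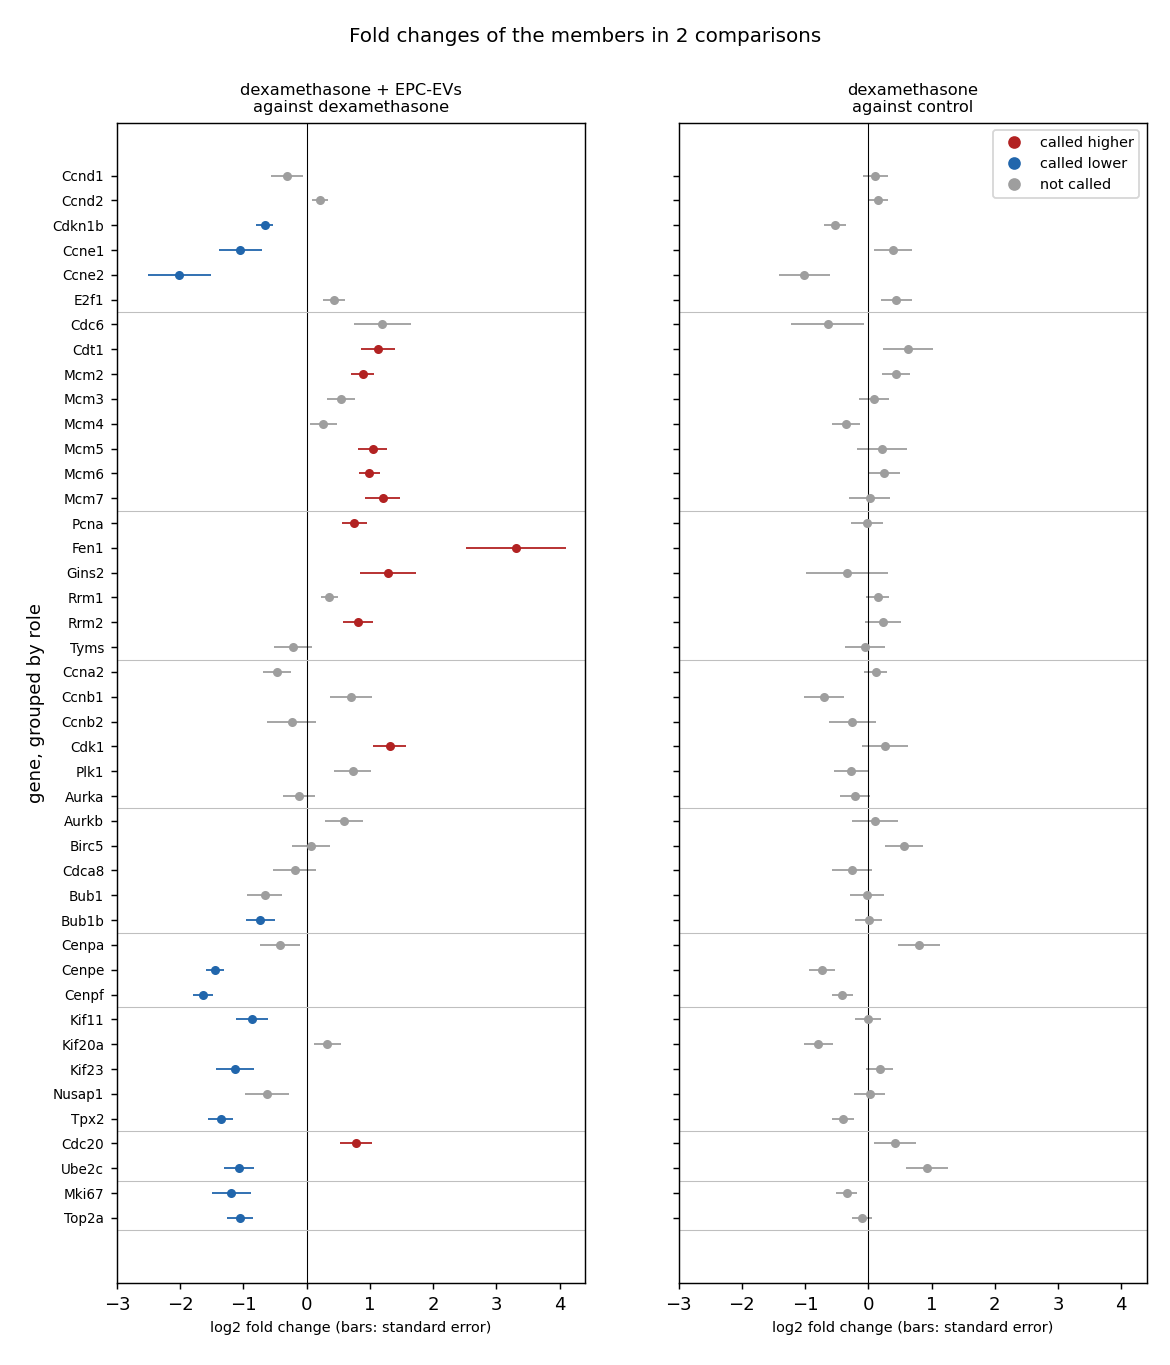
Log2 fold change of each member (points, bars for the standard error) in dexamethasone + EPC-EVs against dexamethasone (left) and in dexamethasone against control (right), with called members in red or blue. On the left the called licensing and fork genes lie between 0.76 and 3.30 and 9 of the 11 called mitotic genes below 0, and on the right no member was called.

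The 2 libraries of the dexamethasone + EPC-EVs group differed from each other in these genes. All 43 members were higher in replicate 1 than in replicate 2, by a median of 0.62 on the log2 scale (range 0.01 to 1.31), whereas 48.9% of all genes were higher in replicate 1. In control 23 of the 43 were higher in replicate 1, with a median difference of 0.03, and in dexamethasone 21 of 43, with a median of -0.02. The difference between the EPC-EVs libraries was also present in genes outside the 43, in 36 of 42 other replication genes and 54 of 57 other mitosis genes. It enters every value given for this group. Without replicate 1, 7 members were called higher and 16 lower, and without replicate 2, 19 were called higher and 9 lower, with 34.8% and 34.1% of all genes called in these fits. The 14 licensing, fork and nucleotide genes were called higher in 6 and 12 cases in these 2 fits and lower in none, and the mitotic genes were called lower in 12 and 7 cases and higher in 1 and 6. The median log2 fold change of the mitotic genes was -0.89 without replicate 1 and -0.10 without replicate 2. A group left with 1 library is assumed to vary like the other. Counting also the fits without a dexamethasone library, some calls were kept whichever library was left out. These were the calls of Mcm2, Mcm5, Mcm6, Fen1 and Cdk1, higher, and of Cdkn1b, Cenpe, Cenpf, Tpx2 and Ube2c, lower. Every other call was lost in at least 1 of these fits. Fen1 passed the filter on low counts only through its EPC-EVs libraries. The share of calls kept in this way over all genes was not computed. Without dexamethasone replicate 2 fewer genes of both roles were called, as were fewer of all genes. The median log2 fold change was then 0.83 over the licensing, fork and nucleotide genes and -0.52 over the mitotic genes.

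**Figure D3:**
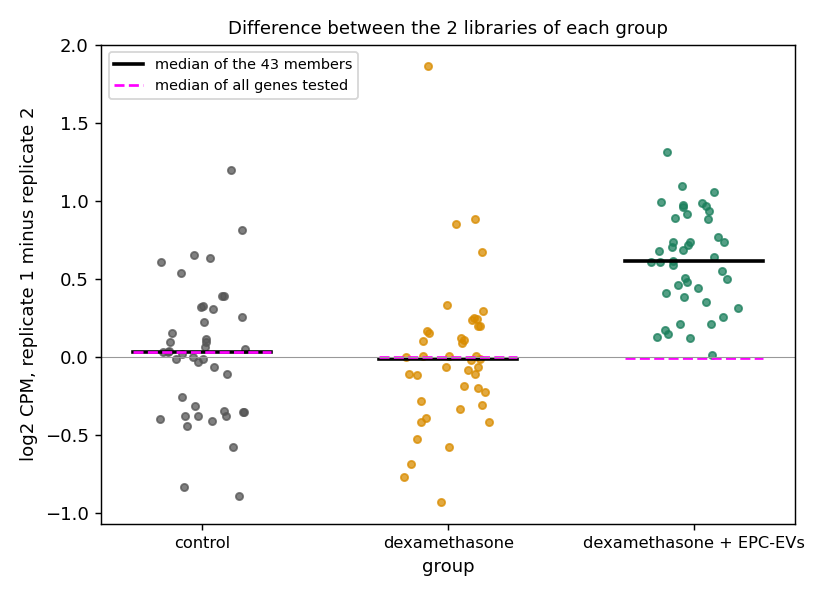
Difference in log2 CPM between replicate 1 and replicate 2 of each group (points, 1 for each of the 43 members), with the median of the members (black) and of all genes tested (dashed). The members scatter around 0 in control and dexamethasone and all lie above 0 in dexamethasone + EPC-EVs, with a median of 0.62.

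Of the origin licensing genes, Cdt1 and the helicase subunits Mcm2, Mcm5, Mcm6 and Mcm7 were called higher with EPC-EVs, with log2 fold changes between 0.88 and 1.20. Mcm7 had the largest change. It stood at 29.3 and 28.7 CPM in the control libraries, 38.1 and 21.1 CPM in dexamethasone, and 81.9 and 58.7 CPM in dexamethasone + EPC-EVs. Both EPC-EVs libraries lay above the other 4, and the 2 dexamethasone libraries differed more than the 2 control libraries. The change against dexamethasone was 2.30-fold (log2 fold change 1.20 ± 0.27 SE, edgeR adjusted p = 0.00465). Without dexamethasone replicate 2 it was 0.84 on the log2 scale and was not called (edgeR adjusted p = 0.0685). Cdc6, the other helicase loader, stood at 6.99 and 3.68 CPM in dexamethasone and 15.6 and 9.66 CPM with EPC-EVs and did not pass (log2 fold change 1.19 ± 0.45 SE, edgeR adjusted p = 0.0532). Mcm3 and Mcm4, the remaining helicase subunits measured, had log2 fold changes of 0.55 and 0.26 and were not called.

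Mcm3 and Mcm6 lie in the part of chromosome 1 that the transcript table used here spans, and could be followed there as transcripts (StringTie FPKM). Cenpf, on the same chromosome, lies beyond the last row of this table, and its transcripts are not analysed here. The leading annotated Mcm6 transcript stood at 5.19 and 6.02 FPKM in control, 10.7 and 11.5 in dexamethasone, and 22.0 and 17.0 in dexamethasone + EPC-EVs. For Mcm3 the leading transcript stood at 8.07 and 7.31, 10.3 and 9.80, and 16.2 and 12.7 FPKM in the same order. For these leading transcripts the 3 groups did not overlap, whereas the gene counts of Mcm6 overlapped between control and dexamethasone (log2 fold change 0.25 ± 0.26 SE). The table also assigns expression to single-exon fragments, 4 assembled inside Mcm6 and 4 inside or beside Mcm3, whose sum for Mcm6 was 10.7 and 19.1 FPKM in control, 13.2 and 4.42 in dexamethasone and 5.59 and 2.58 in dexamethasone + EPC-EVs. No test was run on these values.

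At the replication fork, Pcna, Fen1, Gins2 and Rrm2 were called higher and Rrm1 and Tyms were not called. Pcna, the sliding clamp of DNA polymerase, stood at 43.5 and 34.8 CPM in control, 40.8 and 36.7 CPM in dexamethasone, and 74.8 and 60.2 CPM in dexamethasone + EPC-EVs. The control and dexamethasone libraries overlapped, and both EPC-EVs libraries lay above them. The change against dexamethasone was 1.69-fold (log2 fold change 0.76 ± 0.19 SE, edgeR adjusted p = 0.00902), and without dexamethasone replicate 2 it was 0.68 and not called (edgeR adjusted p = 0.0843). Fen1, the nuclease that trims Okazaki fragments, was listed with 0 counts in both control libraries, 8 and 1 counts in the dexamethasone libraries, and 97 and 76 counts with EPC-EVs, or 1.17 and 0.147 CPM against 7.68 and 5.97 CPM. It overlaps Gm10143 and Tmem258 on the other strand. Fen1 passed the filter on low counts only through the EPC-EVs libraries, where it is high, so its place among the members called higher is descriptive. Its log2 fold change against dexamethasone was 3.30 ± 0.79 (SE, edgeR adjusted p = 0.00606), and 5.40 without dexamethasone replicate 1, which leaves the dexamethasone library with 1 count. Of the subunits of ribonucleotide reductase, Rrm2 was called higher, with a log2 fold change of 0.81, and Rrm1, at 0.36 ± 0.13 SE, was not (edgeR adjusted p = 0.0517). Tyms, thymidylate synthase, had a log2 fold change of -0.22 ± 0.30 SE.

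Of the G1 regulators, both E-type cyclins and the inhibitor Cdkn1b were called lower with EPC-EVs. Ccne2, cyclin E2, stood at 19.1 and 17.1 CPM in control, 10.1 and 7.95 CPM in dexamethasone, and 2.30 and 2.28 CPM in dexamethasone + EPC-EVs. The 3 groups did not overlap. It fell 4.05-fold against dexamethasone (log2 fold change -2.02 ± 0.50 SE, edgeR adjusted p = 0.00761), and -1.82 without dexamethasone replicate 1 was not called (edgeR adjusted p = 0.060). Cdkn1b stood at 278 and 361 CPM in control, 221 and 225 CPM in dexamethasone, and 156 and 135 CPM with EPC-EVs, again without overlap between groups. Its fall against dexamethasone was 1.58-fold (log2 fold change -0.66 ± 0.14 SE, edgeR adjusted p = 0.00245). Ccne1, cyclin E1, was called lower with a log2 fold change of -1.05 ± 0.34 SE (edgeR adjusted p = 0.0286), a call lost without either dexamethasone library and without EPC-EVs replicate 2.

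Ccnd1, Ccnd2 and E2f1 were not called. Ccnd1, cyclin D1, stood at 448 and 290 CPM in control, 385 and 416 CPM in dexamethasone, and 432 and 233 CPM with EPC-EVs, and the groups overlapped. Ccnd2, cyclin D2, stood at 839 and 669, 894 and 798, and 1097 and 919 CPM in the same order. Its EPC-EVs libraries were the 2 highest, but its log2 fold change of 0.21 ± 0.13 SE did not pass (edgeR adjusted p = 0.213). E2f1, a transcription factor of S phase genes, stood at 39.9 and 30.5 CPM in control, 46.3 and 49.9 CPM in dexamethasone, and 70.1 and 64.3 CPM with EPC-EVs, without overlap, and its log2 fold change against dexamethasone was 0.44 ± 0.18 SE (edgeR adjusted p = 0.0685). Leaving out 1 EPC-EVs library changed the call of both cyclins. Ccnd1 was called lower without replicate 1, at -0.82, and Ccnd2 higher without replicate 2, at 0.35.

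Of the 6 mitotic cyclins and kinases Cdk1 alone was called. Cdk1, the kinase that starts mitosis, stood at 15.3 and 20.9 CPM in control, 16.7 and 27.1 CPM in dexamethasone, and 63.7 and 48.7 CPM with EPC-EVs. Both EPC-EVs libraries were higher than the other 4, and the change was 2.48-fold (log2 fold change 1.31 ± 0.26 SE, edgeR adjusted p = 0.002), called with each library left out in turn. Its partner Ccnb1, cyclin B1, stood at 25.6 and 25.1 CPM in control, 16.9 and 14.3 CPM in dexamethasone, and 34.5 and 17.7 CPM with EPC-EVs. The EPC-EVs libraries lay above those of dexamethasone, but replicate 2 lay below control, and the log2 fold change of 0.70 ± 0.33 SE did not pass (edgeR adjusted p = 0.115). Without EPC-EVs replicate 2 it was 1.12 and called (edgeR adjusted p = 0.00774). Ccna2, Ccnb2, Plk1 and Aurka were not called, with log2 fold changes between -0.47 and 0.72.

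Most of the genes called lower belong to the kinetochore, the spindle and the mitotic chromosome. Cenpf, a large protein of the outer kinetochore, stood at 350 and 445 CPM in control, 291 and 309 CPM in dexamethasone, and 115 and 84.4 CPM with EPC-EVs. The 3 groups did not overlap, and Cenpf fell 3.12-fold against dexamethasone (log2 fold change -1.64 ± 0.16 SE, edgeR adjusted p = 1.80e-05), called with each library left out in turn and, at -0.87 on the log2 scale, with a trend on length and GC content removed. Its neighbour in function Cenpe, a kinesin of the kinetochore, fell by 1.45 on the log2 scale, and Cenpa, the histone that marks centromeres, had a log2 fold change of -0.43 and was not called. Tpx2, which nucleates spindle microtubules and activates Aurora A, stood at 316 and 403 CPM in control, 242 and 305 CPM in dexamethasone, and 133 and 86.9 CPM with EPC-EVs. The dexamethasone libraries lay below those of control, and the EPC-EVs libraries lay below both. It fell 2.57-fold (log2 fold change -1.36 ± 0.20 SE, edgeR adjusted p = 0.00026). The motor proteins Kif11 and Kif23 were also called lower, at -0.87 and -1.13, while Kif20a and Nusap1 were not called, at 0.33 and -0.63.

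Mki67, whose product coats mitotic chromosomes, stood at 1007 and 1342 CPM in control, 858 and 1004 CPM in dexamethasone, and 559 and 282 CPM with EPC-EVs. The 2 EPC-EVs libraries differed by a larger factor than those of the other groups and still lay below the other 4. Mki67 fell 2.29-fold (log2 fold change -1.19 ± 0.31 SE, edgeR adjusted p = 0.0242). Without EPC-EVs replicate 2 the log2 fold change was -0.76 and called, and without dexamethasone replicate 2 it was -1.08 and not called (edgeR adjusted p = 0.068). With the replicate number as a block Mki67 was not called either (edgeR adjusted p = 0.0732). Top2a, the topoisomerase that untangles chromosomes, was called lower at -1.05.

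The spindle checkpoint and the anaphase-promoting complex gave smaller or opposed changes. Bub1b, the checkpoint protein BubR1, stood at 89.8 and 117 CPM in control, 90.3 and 118 CPM in dexamethasone, and 81.1 and 48.7 CPM with EPC-EVs. The EPC-EVs libraries were the 2 lowest, and it fell 1.66-fold (log2 fold change -0.73 ± 0.23 SE, edgeR adjusted p = 0.0251). That call was lost without either dexamethasone library or EPC-EVs replicate 2, with log2 fold changes of -0.90, -0.52 and -0.39, and the value without EPC-EVs replicate 1 was -1.13. The chromosomal passenger genes Aurkb, Birc5 and Cdca8 and the checkpoint kinase Bub1 were not called, with log2 fold changes between -0.67 and 0.59. Ube2c, the conjugating enzyme of the anaphase-promoting complex, stood at 23.9 and 13.5 CPM in control, 38.4 and 33.4 CPM in dexamethasone, and 18.7 and 16.6 CPM with EPC-EVs. Its EPC-EVs libraries lay within the control range and below both dexamethasone libraries, and it fell by 1.07 ± 0.23 (SE) on the log2 scale against dexamethasone (edgeR adjusted p = 0.00344). Cdc20, the activator of the same complex, was called higher, with a log2 fold change of 0.78.

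**Figure D4:**
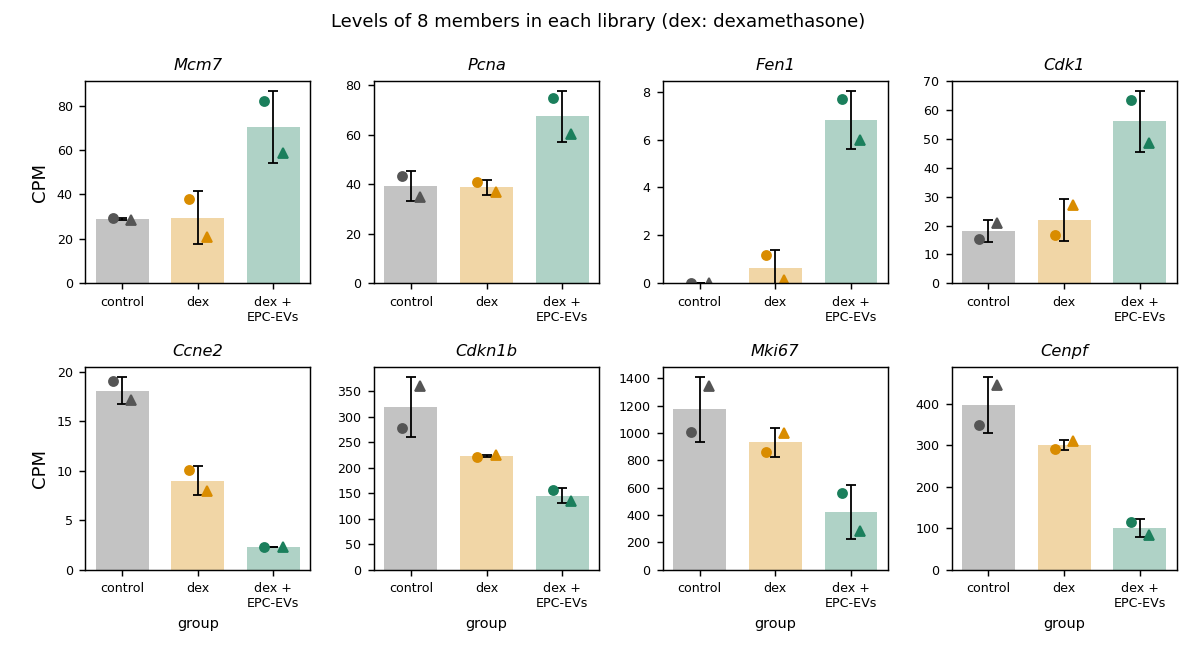
CPM of 8 members in each library (circles for replicate 1, triangles for replicate 2), with the group mean (bars) and the SD of its 2 libraries (lines). Mcm7, Pcna, Fen1 and Cdk1 are highest in both dexamethasone + EPC-EVs libraries, and Ccne2, Cdkn1b, Mki67 and Cenpf are lowest there.

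The fold changes against dexamethasone went with the base composition of the genes. Across all 13544 genes tested with a GC content, Spearman's correlation of the log2 fold change with the GC content of the transcripts was 0.498, and across the 43 members it was 0.529. These genes share the same 4 libraries and are not independent replicates. The members called higher had a median GC content of 53.5% and those called lower of 44.7%. With a trend on length and GC content removed from each library before the same test, 10 members were called higher and 6 lower, with 32.0% of all genes called in either direction, and 14 of the 23 calls remained. Of the licensing, fork and nucleotide genes 8 of 14 were called higher and none lower, around 0.91 as the median on the log2 scale. Single values shifted more, as Cdt1 went from 1.13 to 0.31, Gins2 from 1.29 to 0.92 and Rrm1 from 0.36 to 0.97. Of the 23 mitotic genes 5 were then called lower and 2 higher, together near the 32.0% of all genes, and of the G1 regulators 1 was called lower. Cdt1, Gins2, Cdc20, Ccne2, Cdkn1b, Kif11, Kif23, Mki67 and Top2a lost their calls, and Ccnb1 and Rrm1 gained one in the higher direction. Ccne2, at 37.5% GC the lowest of the members, went from -2.02 to -0.78, Cdkn1b from -0.66 to -0.29 and Mki67 from -1.19 to -0.83. Cenpf went from -1.64 to -0.87 and Cenpe from -1.45 to -0.86, both still called, while Cdk1, at 48.7% GC, stayed at 1.29, Tpx2 at -1.31 and Mcm6 at 1.03. Pcna, at 42.3% GC, had a larger log2 fold change than before and remained called (edgeR adjusted p = 0.000623), and E2f1, at 58.1% GC, went from 0.44 to -0.34 and was called in neither fit. Whether the trend arose in the cells or in the making of the libraries was not tested.

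**Figure D5:**
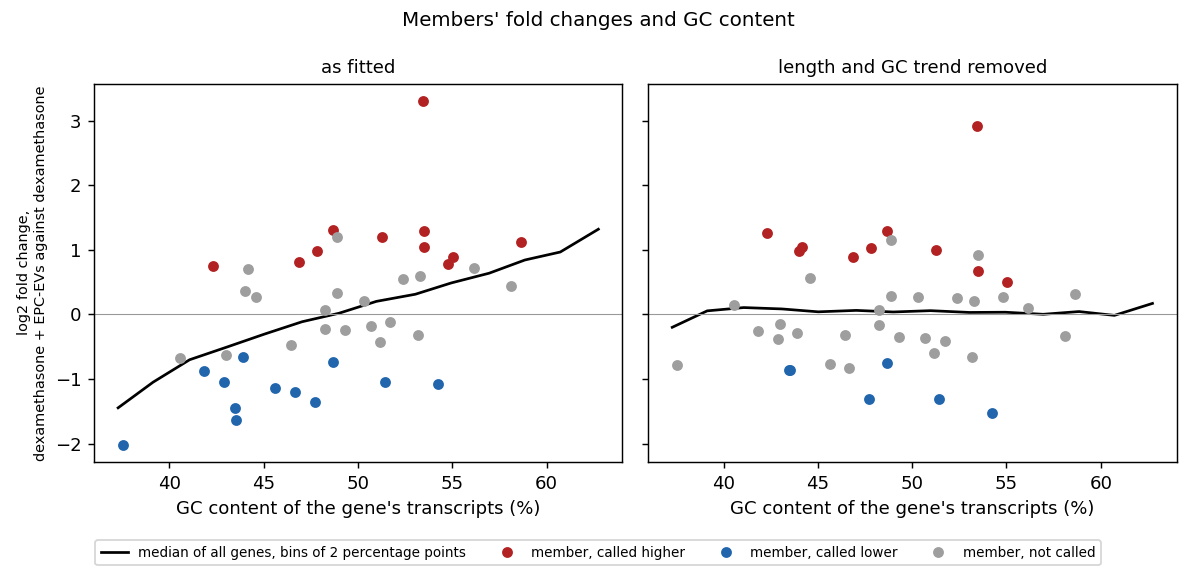
Log2 fold change in dexamethasone + EPC-EVs against dexamethasone (vertical) against the GC content of the gene's transcripts in percent (horizontal) for the 43 members, with the median of all genes in bins of GC content (line), as fitted (left) and after removal of a trend on length and GC content (right). On the left the line climbs with GC content and the members called lower have a median of 44.7% GC, and on the right the line is near 0 and 16 members are called.

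Promoter sequence is shown for members with the largest called changes of their roles, to set the letters of known cell cycle elements beside the direction of change. RefSeq promoters of GRCm38.p6 matched 34 of the 43 members, and the 250 bases before the start were searched on both strands for the CHR element TTTGAA, its variant TTTAAA, the E2F sites TTTCCCGC, TTTGGCGC and TTTGGGAA, and the CCAAT box CCAAT. The E2F letters TTTGGCGC and TTTCCCGC and the CHR letters do not contain each other, while neighbouring CCAAT boxes on opposite strands can share letters. The 7 promoters below are printed from 5′ to 3′ on the strand of the gene, with every match in capitals.
Cdk1 (chr10:69352913-69353162, minus strand): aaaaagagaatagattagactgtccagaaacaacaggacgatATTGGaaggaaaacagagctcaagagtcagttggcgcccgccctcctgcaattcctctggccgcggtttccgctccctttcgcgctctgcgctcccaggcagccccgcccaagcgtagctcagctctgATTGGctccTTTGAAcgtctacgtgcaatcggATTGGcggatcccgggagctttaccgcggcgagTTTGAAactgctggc
Cdc20 (chr4:118437344-118437593, minus strand): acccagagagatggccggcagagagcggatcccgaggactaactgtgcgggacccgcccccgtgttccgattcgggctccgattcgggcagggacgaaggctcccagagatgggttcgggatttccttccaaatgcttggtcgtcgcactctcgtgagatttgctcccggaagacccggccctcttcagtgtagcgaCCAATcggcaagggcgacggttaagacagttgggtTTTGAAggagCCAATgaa
Mcm7 (chr5:138171884-138172133, minus strand): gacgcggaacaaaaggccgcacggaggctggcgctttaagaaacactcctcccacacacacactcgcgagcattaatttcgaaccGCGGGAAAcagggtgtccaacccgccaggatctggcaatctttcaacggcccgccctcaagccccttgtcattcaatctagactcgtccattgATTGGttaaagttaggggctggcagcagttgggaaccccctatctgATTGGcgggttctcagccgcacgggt
Fen1 (chr19:10204394-10204643, minus strand): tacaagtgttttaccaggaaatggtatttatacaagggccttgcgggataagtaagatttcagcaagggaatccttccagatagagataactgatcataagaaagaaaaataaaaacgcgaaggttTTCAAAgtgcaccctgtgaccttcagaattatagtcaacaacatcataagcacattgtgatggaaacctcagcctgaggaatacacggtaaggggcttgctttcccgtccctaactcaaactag
Mki67 (chr7:135716380-135716629, minus strand): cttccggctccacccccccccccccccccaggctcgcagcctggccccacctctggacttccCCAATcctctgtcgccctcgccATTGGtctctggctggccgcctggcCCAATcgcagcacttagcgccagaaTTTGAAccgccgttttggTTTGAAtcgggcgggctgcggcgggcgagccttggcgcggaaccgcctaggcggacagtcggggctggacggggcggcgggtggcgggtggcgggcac
Ube2c (chr2:164769679-164769928, plus strand): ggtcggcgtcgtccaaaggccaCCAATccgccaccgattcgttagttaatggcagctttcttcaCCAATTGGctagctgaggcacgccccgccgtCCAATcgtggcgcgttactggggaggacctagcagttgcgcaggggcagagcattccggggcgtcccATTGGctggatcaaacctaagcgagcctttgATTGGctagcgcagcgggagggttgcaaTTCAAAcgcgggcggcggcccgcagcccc
Cenpf (chr1:189688087-189688336, minus strand): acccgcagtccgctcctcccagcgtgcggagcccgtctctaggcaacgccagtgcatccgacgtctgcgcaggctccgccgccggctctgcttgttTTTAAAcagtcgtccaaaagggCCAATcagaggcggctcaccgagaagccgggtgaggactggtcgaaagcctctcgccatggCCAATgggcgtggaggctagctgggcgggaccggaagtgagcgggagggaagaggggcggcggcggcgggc
Cdk1 and Cdc20, both called higher with EPC-EVs, and Mki67 and Ube2c, both called lower, each carry the CHR letters and CCAAT boxes. In Cdk1 the 2 CHR matches end 66 and 10 bases before the start, and in Ube2c the match ends 24 bases before it. Cenpf carries the variant TTTAAA and 2 CCAAT boxes, Fen1 a CHR match alone, and Mcm7 the letters of an E2F site and 2 CCAAT boxes. A second RefSeq start of Mcm7 (chr5:138171267-138171516 before it, not printed) held a CCAAT box alone. Bub1b and Cenpe, not printed, held a CCAAT box alone.

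A member with 2 starts, of which there were 2, was counted if either held the letters. The CHR letters were found in 9 of the 34 members and in 16.0% of all 32851 promoters of the same length. They were in 4 of the 10 members called higher that had a promoter, 4 of the 10 called lower and 1 of the 14 not called. The CCAAT box was in 26 of 34 members (76.5%) and in 33.8% of all promoters, 8 of 10 called higher, 9 of 10 called lower and 9 of 14 not called. TTTAAA was found in 8 members (12.1% of all promoters), TTTCCCGC in Cdc6 and Mcm7 (0.895%), and TTTGGCGC in Mcm5 and Mcm6 (0.417%). TTTGGGAA was found in no member and in 1.50% of all promoters. These matches describe letters in a window and not binding.

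In dexamethasone against control none of the 42 members tested was called, and 0.0544% of the 12879 genes tested were called, 7 in all. Fen1 was left out by the filter on low counts. At an unadjusted p under 0.05 there were 9 members and 10.9% of all genes. Lower in dexamethasone were Cdkn1b, Ccne2, Ccnb1, Cenpe, Cenpf, Kif20a and Tpx2, with log2 fold changes between -0.40 and -1.01, and higher were Cenpa and Ube2c, at 0.80 and 0.93, and none of these 9 passed the adjustment. DESeq2 called Cenpe lower, and edgeR without a filter called Cenpe and Kif20a lower. Of all 19711 genes in each of these fits, DESeq2 called 131 and edgeR without a filter 248. The median log2 fold change was 0.01 over the members and 0.01 over all genes.

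Of the usual markers of proliferation, Mki67 had a log2 fold change of -0.34 ± 0.17 SE in dexamethasone (edgeR adjusted p = 0.486), Pcna of -0.02 ± 0.25 and Cdk1 of 0.27 ± 0.36. The libraries of Mki67 did not overlap between these groups, whereas those of Pcna and Cdk1 did. Cdkn1b had the value -0.53 ± 0.17 SE (edgeR adjusted p = 0.346), with both dexamethasone libraries below both control libraries, Ccnd1 had 0.11 ± 0.19, Ccnd2 had 0.16 ± 0.15, E2f1 had 0.44 ± 0.25 and Ccnb1 had -0.71 ± 0.32. The count of calls depended on control replicate 1. Without it 9 members were called, Ccnd1, Ccnd2 and Ube2c higher and Cdkn1b, Cenpe, Cenpf, Kif20a, Mki67 and Tpx2 lower, while 16.0% of all genes were called in the same fit, and without any other library of this comparison none was called.

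In dexamethasone + EPC-EVs against control, a comparison that shares its EPC-EVs libraries with the one above, 11 members were called higher and 7 lower, against 19.1% and 17.2% of the 13511 genes tested. Of the licensing, fork and nucleotide genes 8 were called higher and none lower, of the mitotic genes 2 higher and 5 lower, and of the G1 regulators 1 higher and 2 lower. Without EPC-EVs replicate 1 fewer licensing, fork and nucleotide genes were called higher and more mitotic genes lower. The median log2 fold change of the members was then -0.35, against 0.19 without EPC-EVs replicate 2 and -0.09 in the full fit. Cdt1 led the licensing genes, from 11.1 and 10.4 CPM in control to 45.1 and 29.9 CPM (3.38-fold, log2 fold change 1.76 ± 0.33 SE, edgeR adjusted p = 0.00457). It has the highest GC content of the members, 58.6%, and with the trend on length and GC content removed its log2 fold change was 0.41 and not called (edgeR adjusted p = 0.393). Fen1, at 0 in both control libraries, was at least 12.6-fold higher with EPC-EVs, taking 3 counts per control library as the limit that a count of 0 allows. Cdk1 was 3.01-fold higher (log2 fold change 1.59 ± 0.29 SE, edgeR adjusted p = 0.00401) and Pcna 1.67-fold (0.74 ± 0.24 SE, edgeR adjusted p = 0.0439), the latter 1.34 on the log2 scale with the trend removed. The Pcna call was lost without either EPC-EVs library and without control replicate 2, at 0.58 to 0.90 on the log2 scale.

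Cenpe had the largest fall among the mitotic genes against control, from 262 and 392 CPM to 78.3 and 70.7 CPM (4.54-fold, log2 fold change -2.18 ± 0.24 SE, edgeR adjusted p = 0.000512), and with the trend removed its value was -1.35, smaller than that of Tpx2. Its dexamethasone libraries lay between, at 184 and 211 CPM. Cenpf (-2.05), Tpx2 (-1.76), Mki67 (-1.53) and Top2a (-1.15) were also called lower, with values of -0.95, -1.71, -1.01 and -0.22 with the trend removed, where Top2a lost its call, as did Mcm5. Mki67 was not called without control replicate 2 (-1.29, edgeR adjusted p = 0.0552). Ccne2 fell 8.14-fold against control (log2 fold change -3.03 ± 0.45 SE, edgeR adjusted p = 0.00161), and by 1.55 on the log2 scale and still called with the trend removed. Cdkn1b fell 2.27-fold (-1.18 ± 0.20 SE, edgeR adjusted p = 0.00301), and stood at -0.69 and was called with the trend removed. E2f1 was called higher (0.88 ± 0.24 SE, edgeR adjusted p = 0.0216), not without either EPC-EVs library (0.83 and 0.96), and stood at -0.37 and not called with the trend removed. Cdc20 was called higher (1.20 ± 0.34 SE, edgeR adjusted p = 0.0246), not without EPC-EVs replicate 1 (0.88) or control replicate 2 (0.94), and not with the trend removed (0.34). Ccnd1 (-0.20 ± 0.31), Ccnd2 (0.37 ± 0.19) and Ccnb1 (-0.01 ± 0.36) were not called, but Ccnd1 stood at -0.77 and was called lower with the trend removed (edgeR adjusted p = 0.046).

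Other genes of the same pathways, on lists made by function, were compared with dexamethasone in the same fit, in which 20.9% of all genes were called higher and 18.9% lower. EdgeR called 22 of 57 other mitosis genes lower and 2 higher, and their median was -0.54 on the log2 scale. The calls of this list changed with the library left out. Its median was -0.90 without EPC-EVs replicate 1 and -0.19 without EPC-EVs replicate 2. Without dexamethasone replicates 1 and 2 in turn it was -0.56 and -0.51, with fewer genes called lower. Smc4 and Ncapg, subunits of condensin, fell by 2.00 and 2.06 on the log2 scale, and Knl1, a kinetochore scaffold, was called lower as well. The 42 other replication genes held 6 called higher and 3 called lower, around a median of -0.08, and both counts are below these shares of all genes. Among them Rpa2, a subunit of the single-strand binding protein RPA, was higher by 2.13 and Tk1, thymidine kinase, by 1.88, while Orc4, of the origin recognition complex, fell by 1.95. With the trend on length and GC content removed, 11 of the 57 mitosis genes were called lower and 2 higher, around a median of -0.29. In that fit 32.0% of all genes were called in either direction, and both directions of this list together fell below that share. Smc4 stood at -1.03, Knl1 at -0.65 and both were called, and Ncapg (-0.52) and Orc4 (-0.53) were not.

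Of the kinases and inhibitors that act with the G1 members, 8 were tested, 3 called higher and 2 lower. These lists are short, and their counts, like those of the next 3 lists, are to be read against the same shares of all genes. Cdkn1a (p21), an inhibitor and p53 target, stood at 468 and 533 CPM in dexamethasone and 238 and 158 CPM with EPC-EVs, and fell by 1.38 on the log2 scale (edgeR adjusted p = 0.000115). Cdkn2c (p18) stood at 24.5 and 16.1 CPM and 77.2 and 52.1 CPM, and was higher by 1.63 (edgeR adjusted p = 0.000566). Ccnd3, cyclin D3, was higher by 1.15, Cdk4 by 0.76, and Cdk6 fell by 0.42, and the calls of Cdk4 and Cdk6 were lost with the trend removed. Cdkn1c (p57) was at or below 0.294 CPM in all 6 libraries, and Cdkn2a and Cdkn2b are not analysed here. Of the 20 genes of E2F, Rb and the DREAM complex 2 were called higher and 6 lower. Fewer were called lower without either dexamethasone library, and more were called higher without EPC-EVs replicate 2. Their median log2 fold change, -0.172 in the full fit, ranged from -0.335 to -0.159 with 1 library left out. Rb1, the retinoblastoma protein, fell by 1.43, E2f7, a repressor of E2F targets, by 1.01 and Myc by 0.83, and Rbbp4, a histone chaperone of DREAM, was higher by 1.07. Foxm1 (0.51 ± 0.21 SE) and Mybl2 (0.91 ± 0.41 SE), the activators of G2 and mitotic genes, were not called.

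Of the 14 checkpoint kinase and CDC25 genes 2 were called higher and 4 lower. Fewer were called lower without either dexamethasone library or without EPC-EVs replicate 2. The median log2 fold change of this list, 0.23 in the full fit, ranged from -0.04 to 0.35 with 1 library left out. Wee1 and Pkmyt1, the kinases that hold Cdk1 inactive, were higher by 1.25 and 1.32, and Brca2, a repair gene of the same list, fell by 1.58. With the trend removed Wee1 stood at 1.14 and was called, and Pkmyt1 at 0.47 was not. Of the 14 subunits and activators of the anaphase-promoting complex 4 were called higher and 2 lower, among them Anapc2 and Anapc11 (1.47) higher and Anapc10 (-1.62) lower, the last at -0.63 and not called with the trend removed. In dexamethasone against control edgeR's quasi-likelihood test called no gene of these lists. At an unadjusted p under 0.05 there were 10.9% of all genes. The 11 of 57 other mitosis genes and 3 of 14 checkpoint genes at this threshold lay above that share. The 2 of 42 other replication genes and 1 of 20 E2F, Rb and DREAM genes lay below it. DESeq2 called 1 of them, a checkpoint gene, and edgeR without a filter 2, a checkpoint and a mitosis gene. The same fits called 131 and 248 of all 19711 genes, in this order. Without control replicate 1, when 16.0% of all genes were called, edgeR called 17 of the other mitosis genes lower and 2 higher, 4 of the other replication genes higher and 1 lower, 3 of the kinases and inhibitors higher and 1 lower, 2 checkpoint genes and 1 of the E2F, Rb and DREAM genes lower, and 1 gene of the anaphase-promoting complex higher.

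The counts of some members are less certain than others. Of the 43, 20 overlap another annotated gene in GENCODE vM21 and 17 overlap one on the other strand, and although the authors aligned the reads as stranded, how strand was handled in counting is not given in the sources used here. Among them are Mcm7 (chr5:138164583-138172422) with Cops6 and Ap4m1, Ccne2 (chr4:11191351-11204779) with Ints8, Cdc20 (chr4:118432901-118437352) with Elovl1, Gins2 (chr8:120578633-120589304) with Gse1, and Ube2c (chr2:164769898-164778822) with Tnnc2, in GRCm38. Pcna, Tyms, Ccnb1 and Ccnb2 have named pseudogenes, to which reads could be split.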

How the data were processed

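The 6 RNA libraries of the MC3T3-E1 Subclone 14 line comprised 2 for each of control, dexamethasone and dexamethasone + EPC-EVs. The study calls them biological replicates, and p-values measure the spread between these libraries. The authors aligned 150 bp paired reads to GRCm38 with HISAT2, counted them on genes with HTSeq 0.6.1 and deposited the counts without normalization. Gene lengths were derived from the deposited values, taking the FPKM of a gene as its counts divided by gene length and library total. The study states that gene FPKM were summed over transcripts. Transcript FPKM came from StringTie, run by the authors, and the table used here spans part of chromosome 1.

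The fits used edgeR 4.0.16 under R 4.3.3 on the counts (TMM normalization, filterByExpr, robust dispersions, quasi-likelihood test) on the 4 libraries of each comparison, with Benjamini-Hochberg adjustment over all genes tested and calls at an adjusted p under 0.05. The scripts were tested on simulated data. CPM use TMM-scaled totals over 6 libraries, and errors of fold changes are standard errors from the fit. A count of 0 allows up to 3 counts, for counting error only.

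The members, the lists and the rule for named genes were chosen with earlier results of these data known. Values are given for the largest called member of each role, for called members opposed to their role and for Ccnd1, Ccnd2, Cdkn1b, E2f1, Mki67, Pcna, Cdk1 and Ccnb1. Values of other members, and which promoters are printed, were chosen after they were seen. Alternatives were other scalings, filters and tools (DESeq2 1.42.0, limma 3.58.1 on log2(FPKM + 1), with genes of a mean FPKM of at least 0.5), leaving out each library, all 6 libraries in one fit, a replicate block, omission of mitochondrially encoded genes, removal of a loess trend (span 0.4) on gene length and GC content, and the study's threshold, an unadjusted p under 0.05 with a log2 fold change beyond 1.5. Annotation is GENCODE vM21, and promoters are from RefSeq. The 9 members without a promoter entry were Aurkb, Ccna2, Ccnd1, Ccnd2, Ccne2, Gins2, Kif20a, Mcm4 and Tpx2.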

Additional observations from a re-analysis of the deposited data

How the results depend on the processing

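In dexamethasone + EPC-EVs against dexamethasone, 11 members were called without dexamethasone replicate 2 and up to 28 when another library was left out. Without a filter 30 were called (27.2% of all genes), with all 6 libraries in one fit 19 (30.5%, Bub1b, Ccne1, Cdc20 and Gins2 lost), by limma 17 (34.7%, these 4, Kif11 and Rrm2 lost) and by DESeq2 22 (23.5%, Gins2 lost). The study's threshold called 3 (Fen1 higher, Ccne2 and Cenpf lower) and 14.2% of all genes. For dexamethasone against control DESeq2 called 1 member, edgeR without a filter 2, the fit without control replicate 1 called 9 and the other 3 fits that left out a library 0. Against control the study's threshold called 8 members in dexamethasone + EPC-EVs (3 higher, 5 lower) and 20.7% of all genes, and leaving out a library gave 15 to 19 members and 24.6% to 42.8% of all genes. The replicate numbers did not pair the libraries (correlations of deviations 0.0131, 0.0605 and 0.00932). With the replicate block the counts were 23, 0 and 19 (39.6%, 0.334% and 34.6% of all genes), with Mki67 lost and Cdc6 and Kif23 gained. Of the members named by rule some changed sign, and none of the turned values was called. These were, with the trend on length and GC content removed, E2f1 (-0.336 against dexamethasone and -0.373 against control with EPC-EVs, -0.018 in dexamethasone), Ccnd1 (-0.0872) and Pcna (0.0785) in dexamethasone, and Ccnb1 with EPC-EVs against control (0.438). The last also turned under DESeq2 (0.00115), without a filter (0.0456) and with all 6 libraries (0.0152), and Pcna in dexamethasone by limma (0.0562). Leaving out 1 library turned Ccnd1 with EPC-EVs against dexamethasone (range -0.815 to 0.0827) and against control (range -0.698 to 0.193), Ccnb1 against control (range -0.556 to 0.414), and in dexamethasone Ccnd1 (range -0.156 to 0.470), Pcna (range -0.161 to 0.155) and Cdk1 (range -0.112 to 0.575). Of the other members with EPC-EVs against dexamethasone Bub1 turned (0.146) with the trend removed. The cause of these turns was not tested. With 2 libraries a group, depth limits most the members with few counts, Fen1 (at most 97 in a library), Ccne2 (117), Gins2 (187) and Cdc6 (197).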
